A study of Mus musculus with 18 samples.

Results

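Wild-type mouse embryonic stem (ES) cells that had received ICRF-193 for 24 h were compared with cells that had received the solvent DMSO for the same time. The comparison rests on 4 of the 18 libraries of the series: replicates 1 and 2 of 24 h of DMSO and replicates 1 and 2 of 24 h of 1 µM ICRF-193, as their titles give them. Each library has its own ATAC-seq peak list on the mouse genome build mm9. Overlapping peaks of the 4 lists were merged, by 1 bp or more, into 195221 regions on chromosomes 1 to 19 and X. All 4 libraries came from wild-type cells on gelatin in serum and LIF, sorted for viability, and the series' text describes the replicates as separate passages. A p-value from these 4 libraries therefore measures the spread between passages and libraries of these cells. The tests of single genome bins instead use a spread shared over all 18 libraries of the series. The cells that died under either treatment were removed by the sort and are not represented. For context, 6 further wild-type libraries had 1 h of ICRF-193 or DMSO (3 each, by their titles), and 8 came from Brg1 fl/fl and Baf53a fl/- lines that carry Actin-CreER and were given ethanol or tamoxifen.

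ATAC-seq uses a transposase that cuts and tags DNA where nucleosomes and other proteins leave it exposed, so that accessible sites such as promoters and enhancers pile up reads and are called as peaks. Type II topoisomerases (TOP2) pass one DNA duplex through a break in another and so remove tangles and supercoils. ICRF-193 is a bisdioxopiperazine that holds TOP2 as a closed clamp on DNA and blocks its cycle without stabilising the break. ES cells divide rapidly, have much open chromatin and contain mostly the alpha form of TOP2. Accessible sites are unevenly spread along mammalian chromosomes, with stretches rich in genes and active chromatin on one side and stretches poor in both on the other. No gene or sequence is named for the regions here, because an annotation or genome of build mm9 was not used, and the ES cell identity of the samples was therefore not checked against marker genes.

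The 2 DMSO lists held 98166 peaks in replicate 1 and 127030 in replicate 2, and the 2 ICRF-193 lists held 98440 in replicate 1 and 76898 in replicate 2. The deposited names tag the libraries of replicate 1 and of replicate 2 with different years in both groups, so a value within a replicate number is also one within a tag. The lists of replicate 1 were nearly equal in length, and the whole difference between the groups came from replicate 2. The peaks covered 28.1 and 35.6 Mb in DMSO and 28.1 and 20.1 Mb with ICRF-193. The mean difference in covered bases was -0.41 on the log2 scale (two-sided exact permutation p = 0.33, the smallest that 2 against 2 libraries allow). Median peak width was 214 and 210 bp in DMSO and 209 and 194 bp with ICRF-193, so the groups did not overlap (exact permutation p = 0.33). Peaks of 1 kb or more were 1.17% and 0.98% of the DMSO lists and 1.45% and 0.714% of the ICRF-193 lists, and here the DMSO values lay between the ICRF-193 values. Over the 5 list measures compared, which also include the number of peaks and the share on X, adjusted p ran from 0.833 to 1. The lists hold no read counts, so sequencing depth is unknown, and a shorter list cannot be told apart from a shallower library.

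Of the 195221 regions, 40918 (21.0%) held a peak in all 4 lists and 105918 (54.3%) in a single list. Both DMSO lists shared 66093 regions, and 10404 of these (15.7%) had no peak in either ICRF-193 list. These are called lost. Both ICRF-193 lists shared 49275 regions, and 2832 of these (5.75%) had no peak in either DMSO list. These are called gained. The excess of losses was not seen in every pairing of lists. Within replicate 1, 38032 regions were present only in DMSO and 38258 only with ICRF-193. Within replicate 2 the counts were 71707 and 20665. Lost and gained counts are descriptions of detection in 2 against 2 libraries and were not tested region by region.

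**Figure D1:**
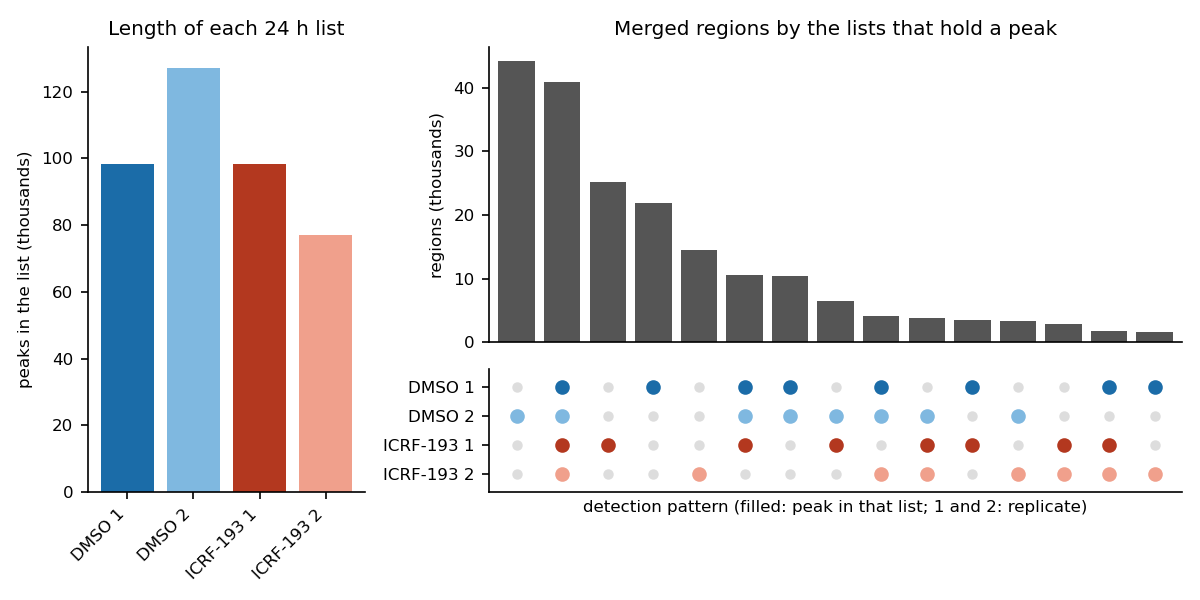
Left, number of peaks in each 24 h list and, right, number of merged regions for each of the 15 combinations of lists that hold a peak, ordered by number. Filled dots mark the lists with a peak. The tallest bars are the 44237 regions found in DMSO replicate 2 alone and the 40918 found in all 4 lists, and the 10404 lost regions stand beside 2832 gained ones.

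Lost regions were narrower and ranked lower in their own lists than the common regions. Their median width was 260 bp against 527 bp for the common regions, and their median score percentile in the DMSO lists was 42.3 against 78.2. The percentile is the rank of a region's highest-scoring peak among the peaks of its list, from the authors' own score. Gained regions were alike in this, with a median width of 239 bp and a median percentile of 36.2. Regions found only in 1 DMSO and 1 ICRF-193 list had median widths of 228 to 253 bp and median percentiles of 30.7 to 37.6. Narrow width and low rank were thus not particular to loss or gain. Lost regions had been found in a median of 5 of the 14 other libraries of the series, and 507 of them (4.87%) in none. Gained regions had been found in a median of 2, and 569 (20.1%) in none. Common regions held a peak in a median of 13 of the 14.

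When the 66093 regions of both DMSO lists were ordered by mean percentile into 5 equal classes, 41.1%, 22.7%, 11.4%, 3.28% and 0.182% were lost from the weakest to the strongest class. Gained regions made up 18.4%, 7.25%, 2.44%, 0.649% and 0.0304% of the corresponding classes of the ICRF-193 lists. Strong sites were therefore retained in nearly all cases in both directions, with 24 of 13219 lost and 3 of 9855 gained. An order taken from libraries outside the contrast gave the same descent. Among regions that also held a peak in all 3 DMSO libraries of 1 h, 885 of 7569 (11.7%) of the weakest class by the 1 h percentile were lost, and 1 of 7569 of the strongest.

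The same descent appears between replicates. Of the 18966 strongest regions of DMSO replicate 1, 82 (0.432%) had no peak in DMSO replicate 2, 350 (1.85%) had none in ICRF-193 replicate 1 and 942 (4.97%) had none in ICRF-193 replicate 2. Seen from ICRF-193 replicate 1, 380 of its 19012 strongest regions had no peak in DMSO replicate 1, 235 had none in DMSO replicate 2 and 617 had none in ICRF-193 replicate 2. The longest list, DMSO replicate 2, thus missed the fewest regions and the shortest, ICRF-193 replicate 2, the most, whichever group the regions came from. The 2 lists of replicate 1, nearly equal in length, did differ by group. Of the strongest regions of DMSO replicate 2, 614 (2.48%) had no peak in DMSO replicate 1 and 1328 (5.36%) had none in ICRF-193 replicate 1. Of those of ICRF-193 replicate 2, 109 (0.748%) had none in ICRF-193 replicate 1 and 212 (1.45%) had none in DMSO replicate 1. Absence thus varied with list length and, between these 2 lists, with the group. Score order over the common regions was closer within groups than across them. Spearman's rho was 0.780 between the DMSO lists, 0.723 between the ICRF-193 lists and 0.671 to 0.711 for the 4 pairs across groups, over 40918 regions that share their libraries.

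**Figure D2:**
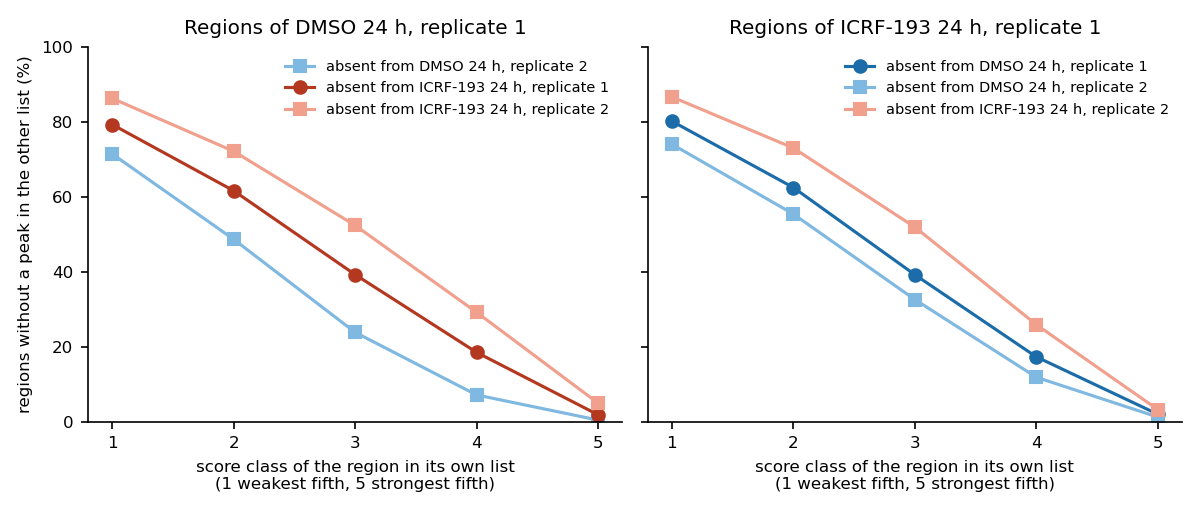
Percent of the regions of DMSO replicate 1 (left) and of ICRF-193 replicate 1 (right) that have no peak in each other list, by 5 equal classes of score in the region's own list. Every line falls from the weakest to the strongest class, and ICRF-193 replicate 2, the shortest list, lacks the most regions in each class of both panels.

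The 24 lost regions of the strongest class were spread over 14 chromosomes. The top lost region, on chromosome 17 from 18092222 to 18092421 (mm9), had percentiles of 91.9 and 95.5 in DMSO replicates 1 and 2. A region on chromosome 13 from 110708822 to 110709313 was at 92.3 and 92.4, and it held a peak in all 14 other libraries, the 3 of ICRF-193 for 1 h included. A region on chromosome 8 from 121047890 to 121048167 was at 88.2 and 97.7 and held a peak in 13 of the 14, and one on chromosome X from 108569589 to 108570080 was at 90.8 and 94.3 and held a peak in 11. Most strongest-class losses were thus sites that other ES cell libraries do detect. Of the 24, 18 had a peak in all 3 DMSO libraries of 1 h and 13 in all 3 ICRF-193 libraries of 1 h. For the 10404 lost regions together these numbers were 1371 and 747.

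The leading gained regions were seldom seen elsewhere. A region on chromosome 8 from 9810989 to 9811481 was at percentile 90.2 and 85.3 in ICRF-193 replicates 1 and 2, and it held a peak in 3 of the 14 other libraries and in none of DMSO for 1 h. One on chromosome 8 from 46665138 to 46665757, 620 bp wide, was at 86.6 and 82.9 and held a peak in 1 of the 14. One on chromosome 13 from 35487505 to 35487873 had the same percentiles as the first and was found in 8 of the 14. Among the 10 gained regions that ranked highest, the number of other libraries with a peak ran from 1 to 8, against 9 to 14 for the 10 lost regions that ranked highest. Gained regions had to be absent from the longest list, DMSO replicate 2, and lost regions from the shortest, ICRF-193 replicate 2. The part of list length in these numbers was not tested.

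Accessible sites in sparsely occupied stretches of the genome differed most between the groups. The genome was divided into 1 Mb bins, and the bins were ordered into 10 classes by their density of peaks in the 3 DMSO libraries of 1 h, which are not part of the contrast. The classes ran from 6.81 peaks per bin and library in the sparsest to 93.2 in the densest. The sparsest class held 1.55% and 2.27% of the peaks of the DMSO lists and 1.34% and 1.26% of the ICRF-193 lists. The next class held 2.90% and 3.95% in DMSO and 2.37% and 2.38% with ICRF-193. The densest class held 23.8% and 21.5% in DMSO and 23.8% and 24.0% with ICRF-193. In both sparse classes the ICRF-193 lists lay below both DMSO lists, and the 2 ICRF-193 lists lay close together although one list is 98440 peaks long and the other 76898.

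The log2 ratio of the sparsest to the densest share was -3.94 and -3.25 in DMSO and -4.15 and -4.25 with ICRF-193. The groups did not overlap, and the mean difference was -0.60 (two-sided exact permutation p = 0.33, the smallest possible). Within replicate 1, whose lists are equally long, the difference was -0.21, and within replicate 2 it was -1.001. DMSO replicate 2 decides much of its size, since the difference was -0.26 without that library. With the 76898 top-scoring peaks of every list the difference was -0.49. When the bins were ordered by the 4 ethanol libraries of the knockout lines, an order chosen after seeing the data, it was -0.51. The 1 h lists spanned more than this gap. Ordered by the ethanol libraries, the ratio was -3.74, -4.06 and -2.99 in DMSO and -3.74, -4.12 and -3.55 with ICRF-193 at 1 h, a mean difference of -0.20 (exact permutation p = 0.7, smallest possible 0.1).

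The percent lost was higher in sparse than in dense bins, and the percent gained was not. In the sparsest class 26.6% of the regions of both DMSO lists were lost, against 13.9% in the densest, while gained regions made up 4.97% and 5.41% of the regions of both ICRF-193 lists. The difference in loss was present at every strength. In the 2 sparsest classes together, 60.1%, 40.6%, 24.7%, 10.4% and 0.465% were lost from the weakest to the strongest score class. In the 2 densest the shares were 37.0%, 19.2%, 8.74%, 1.79% and 0.0603%. The strongest class holds only 3 lost regions in each.

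Pairs of single lists show where this difference arises. Among the strongest 40% of the regions of DMSO replicate 1, 3.50% in the 2 sparsest classes and 3.196% in the 2 densest had no peak in DMSO replicate 2. For ICRF-193 replicate 1, a list of the same length, the shares were 16.9% and 7.91%, and for ICRF-193 replicate 2 they were 23.8% and 14.1%. In the reverse direction, 9.76% of the regions of ICRF-193 replicate 1 in sparse bins and 8.88% in dense bins had no peak in DMSO replicate 1. The pattern was not limited to pairs across groups. Of the regions of DMSO replicate 2, 18.6% in sparse and 8.93% in dense bins had no peak in DMSO replicate 1, and 30.9% and 13.0% had none in ICRF-193 replicate 1. Of those of ICRF-193 replicate 1, 19.4% in sparse and 13.4% in dense bins had none in ICRF-193 replicate 2. In the reverse direction these shares were 4.58% and 4.84%.

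**Figure D3:**
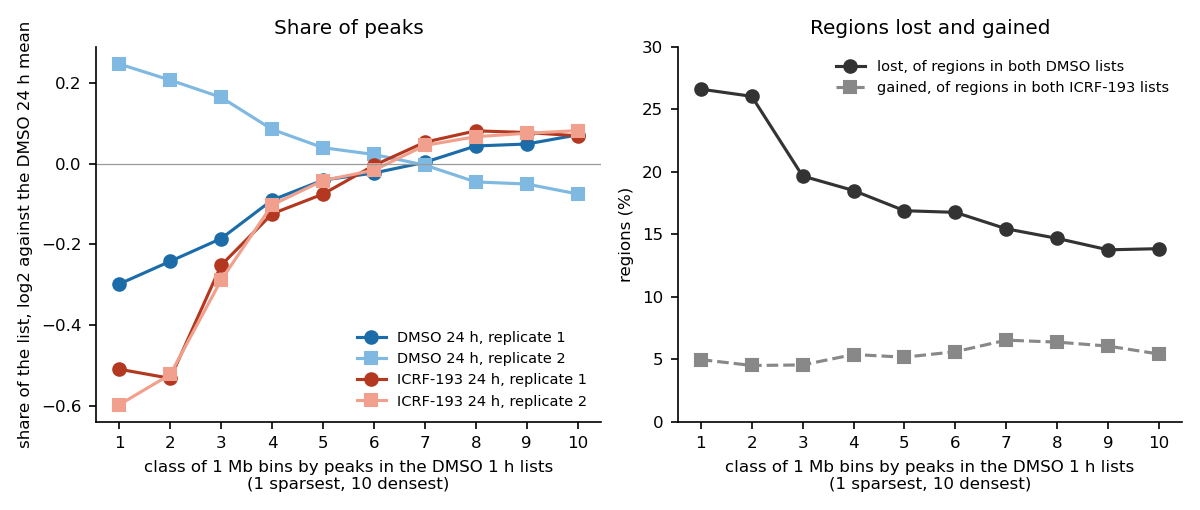
Left, share of each list's peaks in 10 classes of 1 Mb bins from sparsest to densest, as log2 against the mean of the 2 DMSO lists; right, percent of regions lost and gained in the same classes. In classes 1 to 3 both ICRF-193 lists lie below both DMSO lists, and the percent lost falls from 26.6% to 13.9% while the percent gained stays between 4.50% and 6.53%.

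Sites that all 4 lists detected also differed by the density of their bin. Each list's scores were ranked over the same 40918 common regions and the ranks were converted to normal scores, so that a difference of 1 is 1 SD of the ranking. In the 2 sparsest classes, with 1404 common regions, the median rank was 0.24 and 0.34 SD in DMSO replicates 1 and 2 and -0.095 and -0.0023 SD with ICRF-193. In the 2 densest classes, with 17605 common regions, it was -0.058 and -0.097 SD in DMSO and -0.028 and -0.029 SD with ICRF-193. Common sites in sparse bins thus ranked above those in dense bins in DMSO, by 0.30 and 0.44 SD, and about level with them under ICRF-193, by -0.067 and 0.026 SD. Tied scores share a rank, and the median of ICRF-193 replicate 2 was 0.042 SD in class 1 and in each of classes 3 to 6. The part of ties in these medians was not tested.

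The difference between the groups in this gap was -0.39 SD, from 0.37 ± 0.095 in DMSO to -0.020 ± 0.066 with ICRF-193 (SD, n = 2 each; two-sided exact permutation p = 0.33, the smallest possible). The groups did not overlap. Within replicate 1 the difference was -0.37 SD and within replicate 2 it was -0.41 SD. In this setting, unlike in the number of peaks, both pairs thus gave nearly the same value. Leaving out each library in turn gave -0.46 to -0.32 SD. Equal numbers of peaks gave -0.42 SD, with -0.33 within replicate 1 and -0.51 within replicate 2. Ordering the bins by the ethanol libraries gave -0.31 SD (-0.26 and -0.36 within replicates 1 and 2). By the ICRF-193 libraries of 1 h it was -0.36 SD (-0.28 and -0.43). The change was thus below 0 in both pairs throughout, and larger in replicate 2 in these alternatives. This measure and its alternatives were chosen after seeing the data. Class by class, the median change in rank ran from -0.30 SD in the sparsest through -0.27, -0.16, -0.087 and -0.078 SD to -0.0040 SD in the sixth, and was 0.021 to 0.063 SD in the 4 densest.

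At 1 h the groups lay close together on this measure. Over the 25846 regions that held a peak in all 10 wild-type lists of 1 h and 24 h, with bins ordered by the ethanol libraries, sparse bins ranked above dense bins by 0.49, 0.17 and 0.60 SD in DMSO for 1 h and by 0.49, 0.17 and 0.56 SD with ICRF-193 for 1 h. At 24 h the values were 0.54 and 0.62 SD in DMSO and 0.27 and 0.19 SD with ICRF-193. The change was -0.012 SD at 1 h (exact permutation p = 1) and -0.35 SD at 24 h (exact permutation p = 0.33). The 24 h change minus the 1 h change was -0.34 SD, with a permutation p of 0.2167 over all 120 arrangements of the labels within each time, so the times were not shown to differ. Replicate 2 of 1 h, whose 2 lists are the shortest at 58532 and 50611 peaks, stood at the level of the 24 h ICRF-193 libraries in DMSO as well as ICRF-193. The part of list length or library quality in the rank of sparse-bin sites was not tested beyond these values.

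**Figure D4:**
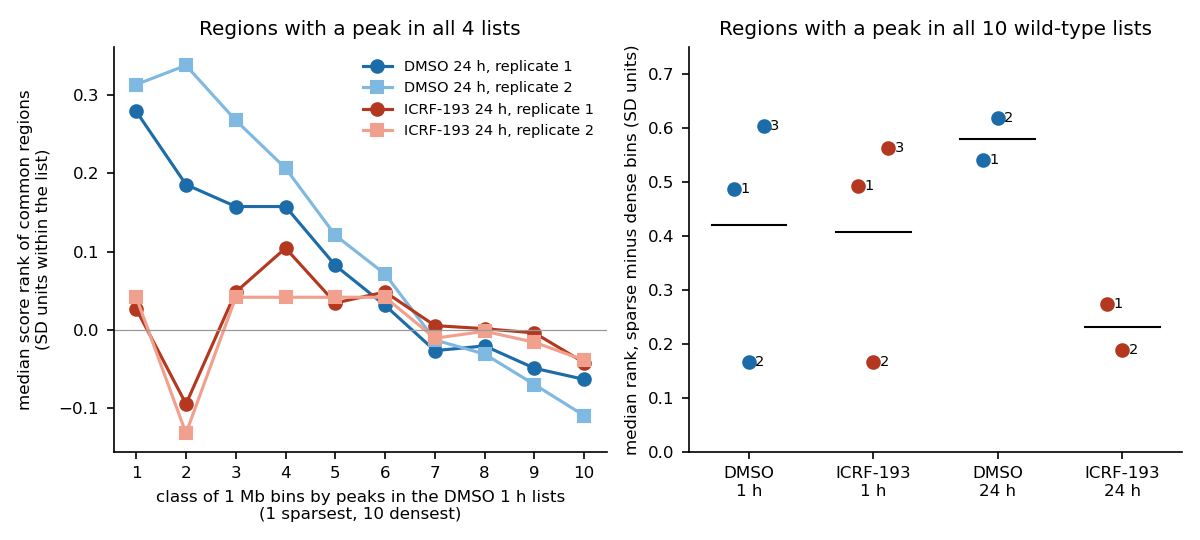
Left, median score rank of the 40918 common regions in each class of 1 Mb bins for the 4 lists of 24 h, in SD units; right, the rank of sparse bins minus that of dense bins over 25846 regions in the 10 wild-type lists, with replicate numbers beside the points and group means as lines. The DMSO lists of 24 h descend from sparse to dense bins while both ICRF-193 lists stay between -0.13 and 0.10 SD, and at 1 h the points of DMSO and ICRF-193 with the same number lie at nearly the same height.

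Single bins were tested with limma on the log2 share of peaks, over 2234 of the 2575 bins that had a mean of 10 or more peaks. The filter leaves out sparse bins. The fit took its spread from all 18 libraries, those of 1 h and of the knockout lines included. A fit of only the 4 libraries of 24 h called 10 bins higher and 16 lower. Of the tested bins 3 (0.134%) passed an adjusted p of 0.05, 1 higher (0.0448%) and 2 lower (0.0895%) with ICRF-193, and 222 had an unadjusted p under 0.05. The higher bin, chromosome 19 from 16000001 to 17000000, held 0.367 and 0.386 peaks per 1000 in the DMSO lists and 0.579 and 0.650 in the ICRF-193 lists. Its log2 change was 0.70 ± 0.15 (SE; limma adjusted p = 0.0471), and it held 9 gained regions and 2 lost ones.

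The bin on chromosome 5 from 86000001 to 87000000 held 0.387 and 0.496 peaks per 1000 in DMSO and 0.254 and 0.234 with ICRF-193, a log2 change of -0.83 ± 0.18 (SE; limma adjusted p = 0.0471). Of its 29 regions shared by the DMSO lists, 10 were lost. The bin on chromosome 11 from 9000001 to 10000000 held 0.428 and 0.401 in DMSO and 0.213 and 0.247 with ICRF-193, a log2 change of -0.83 ± 0.18 (SE; limma adjusted p = 0.0471), and lost 8 of 28 shared regions. In all 3 bins the ICRF-193 libraries lay apart from the DMSO libraries in both replicates. The same values chose these bins, so this separation is no further support. No bin passed without DMSO replicate 1, DMSO replicate 2, ICRF-193 replicate 1 or ICRF-193 replicate 2 (0 higher and 0 lower in each of these 4 fits).

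At 1 h the log2 changes of the same 3 bins were -0.14, 0.076 and -0.038. In DMSO for 1 h the chromosome 19 bin held 0.477, 0.530 and 0.462 peaks per 1000, between the 2 groups of 24 h. The DMSO lists of the 2 times thus differed in this bin as well. The chromosome 5 bin held 0.313, 0.376 and 0.408 and the chromosome 11 bin 0.387, 0.325 and 0.370, above both ICRF-193 lists of 24 h. The difference between 24 h and 1 h had limma adjusted p of 0.127, 0.175 and 0.511 for them. It passed in 0 of 2234 bins, and 96 had an unadjusted p under 0.05. First in order of p among the bins that did not pass was chromosome 13 from 53000001 to 54000000, with 0.367 and 0.386 peaks per 1000 in DMSO and 0.610 and 0.598 with ICRF-193 (limma adjusted p = 0.0522). Chromosome 18 from 49000001 to 50000000 came next, with 0.357 and 0.370 in DMSO and 0.193 and 0.156 with ICRF-193 (limma adjusted p = 0.0522). In DMSO for 1 h this bin held 0.214, 0.171 and 0.254, below both DMSO lists of 24 h. It was followed on the lower side by chromosome 14 from 113000001 to 114000000, with 0.194 and 0.228 against 0.0508 and 0.0780 (limma adjusted p = 0.0679). After chromosome 13, the next on the higher side was chromosome 1 from 85000001 to 86000000, with 0.132 and 0.181 against 0.366 and 0.312 (limma adjusted p = 0.0834).

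**Figure D5:**
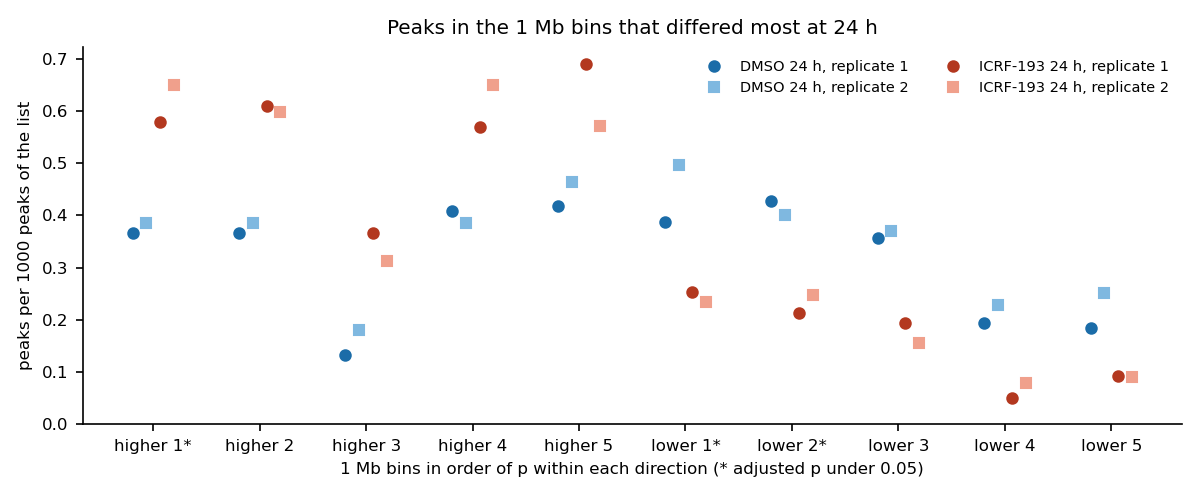
Peaks per 1000 peaks of the list in the 5 higher and 5 lower 1 Mb bins of lowest p, for the 4 libraries of 24 h. The asterisks mark the 3 bins that passed, in which the ICRF-193 values (0.579 and 0.650, 0.254 and 0.234, 0.213 and 0.247) lie outside the range of the DMSO values.

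In bins with many shared regions, loss was widespread rather than concentrated in a few bins. Over the 1442 bins with 20 or more regions shared by the DMSO lists, a median of 14.6% were lost. The quartiles were 10.3% and 19.4%, and 9 bins had lost none. This filter leaves out most bins of the 2 sparsest classes, which held 984 and 1927 such regions in 258 and 257 bins. Loss in these classes was 26.6% and 26.1%. The highest share was 44% on chromosome 14 from 19000001 to 20000000, where 11 of 25 regions were lost and 0 gained. That bin held 33 and 38 peaks in DMSO and 17 and 17 with ICRF-193, and its limma adjusted p was 0.168.

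Single common regions were tested with limma on the same rank scale. Of 40918 regions 53 (0.13%) passed an adjusted p of 0.05, 15 higher (0.0367%) and 38 lower (0.0929%) with ICRF-193, and 4309 had an unadjusted p under 0.05. On percentiles in place of normal scores 0 passed and 3868 had an unadjusted p under 0.05, so these calls depend on the scale. With the replicate number as a block, 153 ranked higher and 263 lower. The counts also move with single libraries. They were 41 higher and 14 lower without DMSO replicate 1, 36 and 10 without DMSO replicate 2, 79 and 373 without ICRF-193 replicate 1, and 47 and 250 without ICRF-193 replicate 2.

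The 8 largest of the 15 rises are described here. The region on chromosome X from 110115740 to 110116210 stood at percentile 2.65 and 1.37 of the common regions in DMSO and 90.3 and 76.6 with ICRF-193. Its rank rose by 3.08 ± 0.54 SD (SE; limma adjusted p = 0.0123), and its peaks covered 195 and 193 bp in DMSO and 471 and 348 bp with ICRF-193. It held a peak in 3 of the 14 other libraries. The region on chromosome 6 from 70822184 to 70822658 stood at 33.9 and 5.90 in DMSO and 92.0 and 91.2 with ICRF-193. Over these 8 the DMSO percentiles reached at most 46.4 and the ICRF-193 percentiles were at least 68.7. The same ranks chose these regions, so this separation is no further support. They held peaks in 3 to 10 of the 14 other libraries, where common regions had a median of 13. Low rank in DMSO is part of the choice, and common regions of like rank were not compared.

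Of the 38 falls, the 8 largest were likewise singled out. The region on chromosome 9 from 86385366 to 86385825 stood at percentile 95.7 and 86.8 of the common regions in DMSO and 20.5 and 11.9 with ICRF-193, and its rank fell by 2.42 ± 0.42 SD (SE; limma adjusted p = 0.0123). The region on chromosome 7 from 102566291 to 102566781 stood at 65.1 and 84.5 in DMSO and 0.0635 and 1.76 with ICRF-193. The region on chromosome 2 from 109215061 to 109215403 stood at 84.9 and 75.3 in DMSO and 2.09 and 5.57 with ICRF-193, and its peaks covered 292 and 343 bp against 164 and 132 bp. These 8 held a peak in 10 to 14 of the 14 other libraries, around the median of 13 for all common regions. High rank in DMSO is part of their choice, and common regions of like rank were not compared.

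Peaks within common regions were narrower in ICRF-193 replicate 2 alone. Median covered width per common region was 370 and 403 bp in DMSO and 367 and 297 bp with ICRF-193. The median change was 0.0045 on the log2 scale within replicate 1 and -0.33 within replicate 2. By limma on log2 width 0 of 40918 regions (0%) passed an adjusted p of 0.05, and 3004 had an unadjusted p under 0.05, 421 of them wider and 2583 narrower. The region of lowest p, on chromosome 4 from 55663789 to 55665011, had peaks over 1001 and 1048 bp in DMSO and 312 and 297 bp with ICRF-193 (limma adjusted p = 0.664). The widest common region, 2233 bp on chromosome X from 154479770 to 154482002, had peaks over 1930 and 1500 bp in DMSO and 1870 and 1418 bp with ICRF-193.

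No chromosome passed the test. By limma 0 of 20 chromosomes (0%) passed, and 0 had an unadjusted p under 0.05. The highest mean changes in share were 0.079 on chromosome 19, with 2.57% and 2.46% of the DMSO lists against 2.601% and 2.72%, and 0.063 on chromosome 7 (log2; limma adjusted p = 0.686 for both). The lowest were -0.071 on chromosome 18, with 3.05% and 3.16% against 3.00% and 2.91%, and -0.061 on chromosome 14 (log2; limma adjusted p = 0.686 for both). Chromosome X held 3.92% and 4.13% of the DMSO peaks and 4.08% and 3.99% of the ICRF-193 peaks. Loss was 14.7% on X and 15.8% on the autosomes.

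The 1 h libraries did not choose the lost and gained regions and give them a separate reading. Lost regions held a peak in 63.5%, 19.3% and 64.3% of cases in DMSO for 1 h and in 50.5%, 14.6% and 45.1% with ICRF-193 for 1 h. Gained regions held one in 37.7%, 9.50% and 35.9% in DMSO and in 28.4%, 8.09% and 23.3% with ICRF-193. These values follow the length of the list, so each was divided by the share of all 195221 regions found in the same list. On that scale lost regions differed by -0.17 between ICRF-193 and DMSO (log2; two-sided exact permutation p = 0.5, smallest possible 0.1) and gained regions by -0.18 (exact permutation p = 0.5), and neither difference exceeded the spread between the 1 h libraries. Between libraries of the same replicate number the differences were -0.11, -0.22 and -0.19 for lost regions and -0.19, -0.050 and -0.31 for gained regions, below 0 in 3 of 3 each (exact sign-flip permutation p = 0.25, the smallest that 3 pairs allow). Both lists of replicate 2 are short, and without the ICRF-193 list of that pair the group differences were 0.11 and 0.092. Lost over gained regions within a list, a ratio in which list length weighs less, differed by 0.0092 (exact permutation p = 0.9). At 1 h the lost and the gained regions of 24 h thus differed in detection by no more than these 6 libraries could resolve.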

How the data were processed

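The members and lists of this comparison were chosen with earlier results of these data known. Per the submitters' processing notes, the authors used Bowtie 0.12.9, MACS2 and edgeR 3.12.1 on build mm9, with no role or order stated; the sources used here do not give peak-calling parameters, duplicate handling or read shifting. The deposited lists hold start and end positions (other values) and a score per peak with no stated unit, called per library. The authors' score served for ranks and cut-offs inside each list alone.

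A region was detected in a library if it held 1 or more peaks. Merging was checked against bedtools 2.31.1. Bins, ranks, widths and chromosome shares were fitted with limma 3.58.1 (R 4.3.3, variance trend, Benjamini-Hochberg, threshold 0.05): bins as log2((peaks + 0.5) / list total × 1000) over all 18 libraries with 1 term per group, the rest over the 4 libraries of 24 h. Single values had two-sided exact permutation tests. The remaining work was done in Python 3.11.15 (scipy 1.17.1, pandas 2.3.3, numpy 2.4.6). Tested on simulated data for this contrast, the bin fit called 34% of 2-fold falls and 22% of 2-fold rises over 2234 bins. It called 4% of 1.5-fold falls and 0% of 1.5-fold rises. The rank fit called 32% of falls and 30% of rises of 2 SD over 40918 regions, and 4% and 0% of those of 1 SD. A small number of calls thus does not show that few bins or regions changed.

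Regions named are the 10 lost and 10 gained of highest mean percentile, the 8 largest called rises and falls in rank (for width, by p), bins that passed or the 5 of lowest p, the 5 bins with most loss or gain, the 2 chromosomes with the largest rise and the 2 with the largest fall in share, and the 10 widest common regions; some of these appear as ranges or in the plots only. The planned gene, promoter and marker analyses were not run, because the supplied tables follow another build than mm9. Both groups share replicate numbers 1 and 2, which the deposited names tag with different years. Deviations of same-numbered libraries from their group means correlated by only 0.0235 (ranks) and 0.0160 (bins), so the main fits have no block.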

Additional observations from a re-analysis of the deposited data

How the results depend on the processing

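The limits are these. Read depth is unknown, 2 against 2 libraries cannot give an exact p below 0.33, and a peak that is missing may lie just under the calling threshold. The bin and rank calls are few and unstable. The gap in rank and in share of peaks between sparse and dense bins kept its sign under each alternative run, at -0.95 to -0.26 (log2) for the share and -0.46 to -0.31 SD for the rank. With equal numbers of peaks, 6248 regions were lost and 3807 gained, and with the top-scoring 50% of each list 6220 and 1505. With single libraries left out, lost regions numbered 14556 to 54641 and gained ones 4586 to 28040, since presence or absence in fewer lists is a looser rule. Loss in the weakest score class was 11.7% by the 1 h score and 30.8% with equal numbers. In the strongest it was 0.0132% by the 1 h score. With equal numbers, loss was 10.97% in the nearest and 14.6% in the farthest class of distance. The percentage of peaks at least 1 kb wide then turned to -0.27 percentage points and the change on chromosome 14 to 0.0066 (log2). At 1 h, the value for lost regions turned to 0.11 without ICRF-193 replicate 2 and to 0.0092 when set against gained regions, a ratio added after seeing the data. The range with single libraries left out was -0.44 to 0.11. The value for gained regions turned to 0.073 with equal numbers, 0.0023 without DMSO replicate 1 and 0.092 without ICRF-193 replicate 2 (range -0.53 to 0.092). Leaving out ICRF-193 replicate 2 drops 1 library of the pair with the shortest lists. The cause of the other turns was not tested.

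Bins that passed numbered 10 higher and 16 lower in a fit of only the 4 libraries of 24 h, 3 and 7 with a pseudocount of 2, 0 and 1 in bins of 500 kb, 1 and 1 after quantile normalization, and 1 and 0 with equal numbers. They numbered 0 and 0 in bins of 2 Mb, with a mean of 5 or more peaks and without a filter, where the unadjusted p was under 0.05 in 147, 255 and 266 bins. With single libraries left out they numbered 0 to 0 in each direction, with 78 to 235 bins at an unadjusted p under 0.05. Common regions with a changed rank numbered 4 higher and 17 lower with equal numbers, 0 and 0 on percentiles, and 0 and 1 among regions above the median percentile, a restriction added after seeing the data. With single libraries left out they ran from 36 to 79 higher and from 10 to 373 lower. Where a group is left with 1 library, it is assumed to vary like the others.

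With the replicate number as a block, 11 bins were higher and 16 lower in the 4 libraries of 24 h, and 153 common regions ranked higher and 263 lower. Within number 1 alone, 38032 regions were lost and 38258 gained, and within number 2 alone 71707 and 20665. Same-numbered libraries correlated too weakly for the numbers to count as pairs, and the block changed no other call.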

Other observations

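Some regions lost after 24 h of ICRF-193 also had no peak after deletion of Brg1, and fewer had none after deletion of Baf53a. Brg1 is the ATPase of the BAF chromatin remodelling complex. Of the 10404 lost regions, 3264 held a peak in both Brg1 ethanol libraries, and 1515 of these (46.4%) had none in either Brg1 tamoxifen library. Of the 66093 regions of both DMSO lists, 45751 held a peak in both ethanol libraries and 8018 (17.5%) had none after tamoxifen. Gained regions gave 105 of 254 (41.3%), and the regions of both ICRF-193 lists 4836 of 36755 (13.2%). Lost and gained regions both ranked low (median percentiles of 42.3 and 36.2). The Brg1 tamoxifen lists are also shorter, with 84711 and 46393 peaks against 107423 and 84960 in ethanol. The part of strength and of list length in these shares was not tested. Of the 24 lost regions of the strongest class, 19 held a peak in both ethanol libraries and 6 of them had none after tamoxifen, against 560 of 13046 (4.29%) for that class as a whole. For Baf53a, 660 of the 10404 lost regions held a peak in both ethanol libraries and in neither tamoxifen library. This held for 93 of the 2832 gained regions and 2391 of the 66093 regions of both DMSO lists. Of the 24 strongest-class losses it held for 0. The number held in both Baf53a ethanol libraries is not given here, so these counts are not shares like those for Brg1. No Brg1 or Baf53a library is shared with the ICRF-193 comparison.

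Loss differed little towards chromosome ends. It was 17.1% in the first 10 Mb of the assembly of each chromosome, 14.9% in the last 10 Mb and 15.8% between them. Common regions were split into more peaks in both ICRF-193 lists than in either DMSO list in 392 cases and into fewer in 255, of 40918. In ICRF-193 replicate 2 8.80% of common regions held 2 or more peaks, against 6.36% to 6.99% in the other 3 libraries. Regions whose nearest neighbour shared by the DMSO lists lay farthest away were lost in 18.2% of cases, and those with the nearest neighbour closest in 14.2%, and the farthest class had the highest loss within each of the 5 score classes.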
